A study of Mus musculus with 8 samples.

Results

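Astrocytes of the adult mouse hippocampus were examined as the nuclei to which the authors' deposited annotation gives the cell type astrocytes. They made up 2167 of 29425 nuclei in 4 single-nucleus (sn)RNAseq libraries, with 167 in mutant replicate 1, 939 in mutant replicate 2, 491 in control replicate 1 and 570 in control replicate 2.

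The study removed Wls, the carrier that Wnt proteins need to leave the cell that makes them, from the hippocampus with a Cre recombinase driven by the Gfap promoter, and asked what this did to the tissue. The mutant was Gfap-Cre;Wls fl/- and the control Gfap-Cre;Wls fl/+, so both genotypes carried Cre and a floxed Wls allele, and the control kept a functional copy after recombination. The mutant carried in addition a null allele in every cell, whatever the reach of Cre. Each library came from the hippocampi of a single male mouse at 12 weeks, and 2 mice of each genotype were used for snRNAseq (10X Chromium 3′ chemistry, unique molecular identifiers, UMIs) and 2 for whole-tissue (bulk) RNAseq. Gfap-Cre acts in neural progenitors, from which neurons, astrocytes and oligodendrocytes arise, and is therefore not restricted to astrocytes. The part of Wls between the loxP sites is not given in the sources used here.

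Astrocytes are the glia that take up glutamate and potassium released by neurons, pass water through aquaporin 4 and couple to each other through gap junctions. They supply neurons with lipid particles built around apolipoproteins and with energy substrates, and they respond to injury by raising intermediate filament proteins such as GFAP. Wnt ligands are bound by Frizzled receptors and stabilise beta-catenin, which with TCF factors switches on target genes that include feedback inhibitors of the pathway.

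Astrocyte nuclei were shallow, with a median of 1964 and 2501 UMIs in mutant replicates 1 and 2 and 1986 and 3440 in control replicates 1 and 2. Their UMIs summed to 349012 and 2514262 in the mutants and 1118541 and 2061365 in the controls, so mutant replicate 1 is the least deeply measured astrocyte sample. Mitochondrial transcripts were 0.0559% to 0.0989% of astrocyte UMIs, and the nuclear RNA Malat1 took 10.5% in control replicate 1 and 14.6% to 14.95% in the other 3 samples. No astrocyte barcode was shared between libraries, and 8 to 21 barcodes over all nuclei were shared by any pair of libraries.

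The label was borne out by the markers. Of 14 transcripts that define astrocytes, 11 had a higher mean level in these nuclei than in any other deposited type, where the level (CPM) is the UMIs of a gene scaled to 1000000 UMIs of the type in the sample. Over the 4 samples, the mean level of the glutamate transporter Slc1a2 was 7.56 times that of the next type, that of the acyl-CoA synthetase Acsbg1 16.9 times, that of Aqp4 15.7 times, and that of the glypican Gpc5 2.01 times that of oligodendrocyte precursors. Among those that did not, the transporter Slc1a3 was higher in microglia and the connexin Gjb6 in the small type labelled inhibitory neurons 14. Since the nuclei were clustered on their transcripts, these ratios describe the label and are not a test.

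The markers were at like levels in both genotypes. Slc1a2 stood at 6977 and 7352 CPM in the mutants and 8157 and 8072 in the controls, and Gpc5 at 9570 and 8570 against 9049 and 7798. Acsbg1 stood at 413 and 415 CPM in the mutants and 380 and 438 in the controls, and Aqp4 at 436 and 398 against 492 and 424. The groups overlapped for all of these but Slc1a2, and none of the 4 passed the thresholds given further on (log2 fold change of -0.13 for Slc1a2, 0.15 for Gpc5, 0.06 for Acsbg1 and -0.09 for Aqp4). At least 1 Slc1a2 UMI was found in 99.9% to 100% of astrocyte nuclei and in 45.2% to 60.9% of the much deeper dentate granule cell nuclei, and at least 1 Aqp4 UMI in 42.0% to 67.5% and in 0% to 2.19% (0 of 90 granule cell nuclei in mutant replicate 1, exact 95% upper limit 4.02%). The median granule cell nucleus held 4242 to 7688 UMIs.

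Astrocytes were 3.15% of nuclei in mutant replicate 1 (exact 95% binomial interval 2.70% to 3.65%), 8.98% in mutant replicate 2 (8.44% to 9.54%), 7.59% in control replicate 1 (6.96% to 8.26%) and 7.93% in control replicate 2 (7.31% to 8.57%). These and all later intervals cover counting error only. Against all nuclei the mutants lay on either side of the controls. In a quasi-likelihood test of nuclei per type (edgeR, Benjamini-Hochberg adjusted), the log2 ratio of mutant to control was -0.35 ± 0.69 (SE, adjusted p = 0.80). Without mutant replicate 1 it was 0.21, and without mutant replicate 2 it was -1.30. With this total the direction thus rested on a single mouse. With granule cell nuclei left out of the total, astrocytes were 3.20% and 9.39% in the mutants and 11.9% and 11.0% in the controls. With that total both mutants lay below both controls, and no test of it is given here.

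Wls itself was nearly absent from mutant astrocytes. The gene lies on the plus strand of mm10 at chr3:159839672-159938664. Its UMIs numbered 1 and 5 in mutant replicates 1 and 2 and 57 and 80 in control replicates 1 and 2, which are levels of 2.87, 1.99, 51.0 and 38.8 CPM. The summed control level was 20.6 times the mutant level (exact 95% interval 9.21 to 57.0), and the fitted log2 fold change was -4.28 ± 0.45 (SE, adjusted p = 0.000227, the quasi-likelihood test of edgeR, Benjamini-Hochberg adjusted). Both mutants were below both controls. A Wls UMI was seen in 1 of 167 and 5 of 939 mutant nuclei (0.599% and 0.532%) and in 38 of 491 and 60 of 570 control nuclei (7.74% and 10.5%).

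With every nucleus thinned to 1500 UMIs, at least 1 Wls UMI was found in 0.599% and 0.319% of mutant astrocytes and 6.31% and 3.86% of control astrocytes. Granule cells, which had 3.34 to 5.55 CPM of Wls in all 4 samples and no difference past the thresholds (log2 fold change 0.49), held a Wls UMI in 2.22% and 4.10% of unthinned mutant nuclei and 1.498% and 3.44% of control nuclei. The granule cell nuclei are deeper, so these shares are not at matched depth, and the level of free Wls RNA in the libraries was not measured. Without mutant replicate 2 the fold change was -3.87 (adjusted p = 0.14), without control replicate 1 it was -4.14 (adjusted p = 0.88), and without control replicate 2 it was -4.44 (adjusted p = 0.091), all in edgeR, where the lone sample is assumed to vary like the other group.

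Wls also fell in oligodendrocytes (log2 fold change -4.14, adjusted p = 6.9e-05 in edgeR) and in oligodendrocyte precursors (-3.16, adjusted p = 0.0063 in edgeR). In microglia the value was -1.11 (adjusted p = 0.70 in edgeR), and the levels were 46.4 and 91.8 CPM in the mutants and 160 and 208 in the controls. Microglia do not arise from neural progenitors. Against the mean of these 3 types, the Wls difference in astrocytes was larger by -1.41 ± 0.63 (SE), which did not pass (adjusted p = 1.00, edgeR's quasi-likelihood interaction test, Benjamini-Hochberg adjusted). The type labelled inhibitory neurons 12 had a log2 fold change of -2.78 (adjusted p = 0.000553 in edgeR). In bulk RNAseq, Wls stood at 3.61 and 6.86 CPM in the mutants and 13.3 and 13.1 in the controls (log2 fold change -1.31 ± 0.30 SE, adjusted p = 0.12 in edgeR's quasi-likelihood test).

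**Figure D1:**
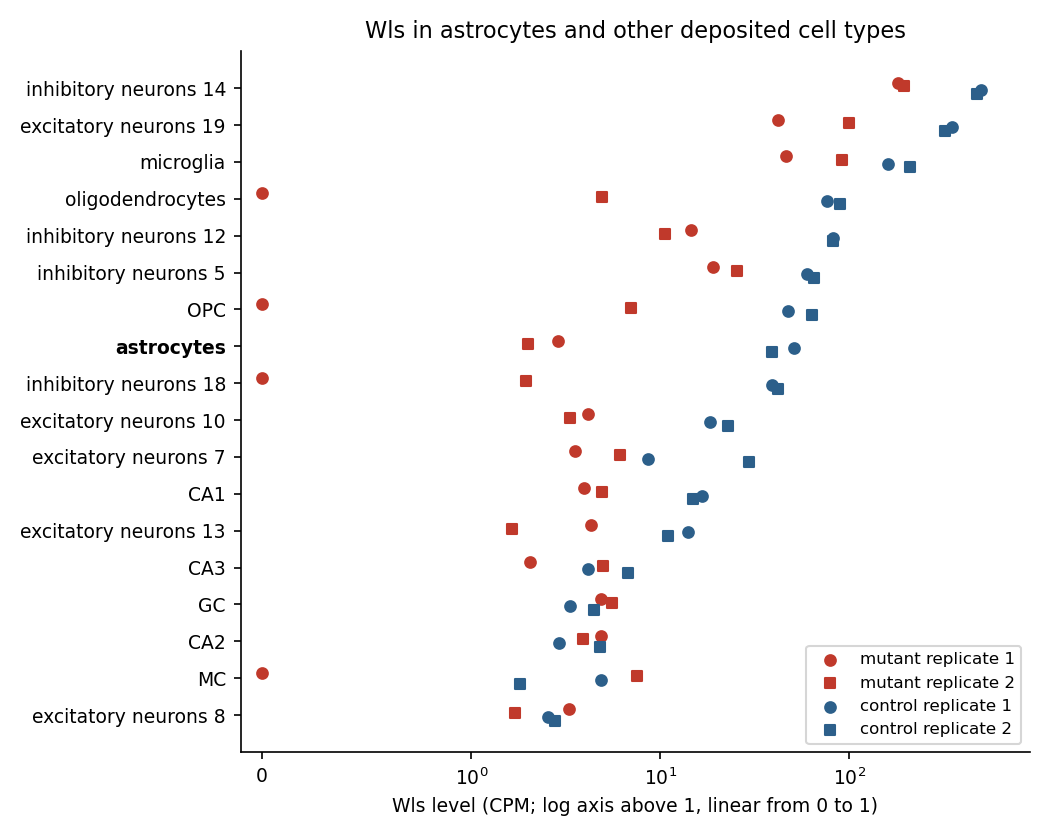
Wls level (CPM within the type, horizontal axis, log above 1 and linear from 0 to 1) in each deposited cell type (rows), with each point 1 of the 4 snRNAseq samples, coloured by genotype. In astrocytes the mutants sit at 2.87 and 1.99 CPM and the controls at 51.0 and 38.8 CPM, while in granule cells all 4 samples lie between 3.34 and 5.55 CPM.

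Beyond Wls, few transcripts differed between mutant and control astrocytes. UMIs were summed over the astrocyte nuclei of each mouse, so that the mouse and not the nucleus was the replicate, and a gene was called at a fold change (FC) above 2 and an adjusted p (false discovery rate, FDR) below 0.05. Of 11482 genes tested, 15 were higher in the mutants (0.131%) and 29 lower (0.253%). For all 44 both mutants lay outside the range of both controls. With 2 samples per group the call itself favours this separation, and its share over all genes tested was not counted. The median log2 fold change over all genes tested was -0.00. At an unadjusted p under 0.05 with FC above 2 there were 161 and 203 genes, and DESeq2 called 7 and 11, all of them among the 44. For 23 of the 44 DESeq2 gave no adjusted p, and it did not call Apoe (adjusted p = 0.34), Clu (0.092) and Pde10a (0.40).

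These counts depended on the mice entered. Without mutant replicate 1, the shallowest sample, edgeR called 65 genes higher and 107 lower, which took in 14 and 27 of those called in all 4 mice. Without mutant replicate 2 it called 2 and 2, and without either control it called 0 and 0. At an unadjusted p under 0.05 with FC above 2, 107 and 148 genes remained without control replicate 1 and 309 and 233 without control replicate 2; DESeq2 was not run on those sets of samples.

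**Figure D2:**
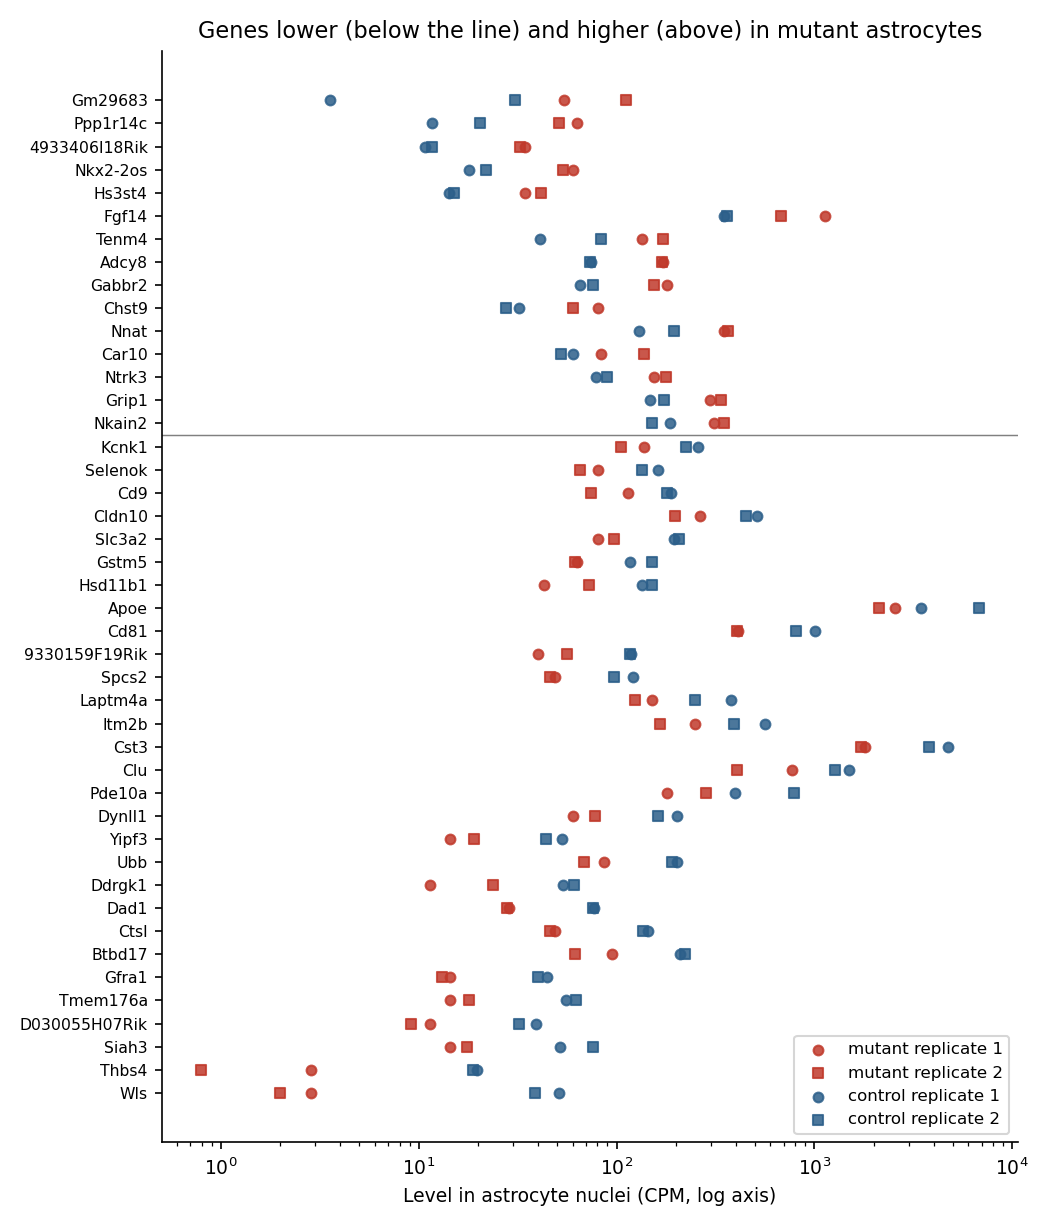
Levels in astrocytes (CPM, log axis, horizontal) of the 44 genes that passed FC above 2 and FDR below 0.05, 1 row per gene, with a point for each of the 4 samples coloured by genotype. The largest fold change among genes that fell is that of Wls (log2 fold change -4.28) and among genes that rose that of Gm29683 (2.28). In every row both mutants lie on the same side of both controls, which the call itself favours.

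Cst3, Apoe and Clu were among the genes that fell in edgeR, the last 2 without a call in DESeq2. Cst3 (mm10 chr2:148871722-148875692) encodes cystatin C, a secreted inhibitor of cysteine proteases. Its level was 1799 and 1711 CPM in the mutants and 4734 and 3778 CPM in the controls. The controls were thus well apart from the mutants, and the mutant level was 2.35-fold lower (log2 fold change -1.23 ± 0.15 SE, adjusted p = 0.000634 by the quasi-likelihood test of edgeR, Benjamini-Hochberg adjusted). Cst3 passed without mutant replicate 1 or 2 but not without control replicate 1 (adjusted p = 0.88) or 2 (0.067), and it was named after its values were seen.

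Apoe (chr7:19696109-19699188), the main apolipoprotein of brain lipid particles, stood at 2556 and 2121 CPM in the mutants and 3478 and 6770 CPM in the controls. The controls differed from each other more than the lower control differed from the mutants. The log2 fold change was -1.10 ± 0.22 (SE, adjusted p = 0.033 in edgeR), and without control replicate 2 it was -0.50 (adjusted p = 0.44). Clu (chr14:65968483-65981547), which encodes the apolipoprotein clusterin, stood at 768 and 404 CPM in the mutants and 1505 and 1274 in the controls (log2 fold change -1.25 ± 0.22 SE, adjusted p = 0.015 in edgeR). Without mutant replicate 2 the Clu fold change was -0.82 (adjusted p = 0.22).

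Apoe and Clu were the 2 members called of 27 tested from a list of cholesterol and lipid genes. The median log2 fold change over the list was -0.25, and 16 of the 27 values were negative, beside 5749 of 11482 over all genes tested. Plpp3, a lipid phosphatase enriched in astrocytes, stood at 1825 and 1956 CPM in the mutants and 2172 and 2197 in the controls (log2 fold change -0.16).

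Other genes that fell are given by the known role of their products, and all but Ctsl and Dad1 were named after their values were seen. Ctsl, a lysosomal cysteine protease, stood at 48.7 and 46.1 CPM in the mutants and 145 and 135 in the controls (log2 fold change -1.52 ± 0.22 SE, adjusted p = 0.0057 in edgeR). The endoplasmic reticulum genes Dad1 (an oligosaccharyltransferase subunit), Spcs2 (a signal peptidase subunit) and Selenok had log2 fold changes of -1.39, -1.15 and -1.03. The membrane proteins Cd81 and Cd9 (tetraspanins), Itm2b, Laptm4a (lysosomal), Cldn10 (a claudin) and Kcnk1 (a potassium channel subunit) fell by 1.10, 1.04, 1.22, 1.17, 1.05 and 1.01 on the log2 scale. Ubb (ubiquitin) fell by 1.36 and Dynll1 (a dynein light chain) by 1.26 on the same scale.

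Thbs4 encodes thrombospondin 4, an extracellular matrix protein, and had 1 and 2 UMIs in the mutants and 22 and 39 in the controls (2.87, 0.80, 19.7 and 18.9 CPM). It was close to undetected in the mutants. The summed control level was 18.3 times the mutant level (exact 95% interval 5.98 to 91.2), and the fitted log2 fold change was -4.02 ± 0.64 (SE, adjusted p = 0.0084 by the quasi-likelihood test of edgeR, Benjamini-Hochberg adjusted). In control nuclei thinned to 1500 UMIs, 2.44% and 2.63% held a Thbs4 UMI. In the mutants 0 of 167 nuclei did (exact 95% upper limit 2.18%), and 2 of 939 (0.213%), all as shares of nuclei with a UMI at this depth. Without mutant replicate 2 the fold change was -2.68 (adjusted p = 0.50 in edgeR), and without either control it was -4.04 and -3.98, also not past the threshold.

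Siah3, a relative of the Siah ubiquitin ligases, stood at 14.3 and 17.5 CPM in the mutants and 51.9 and 75.7 in the controls (log2 fold change -1.89 ± 0.30 SE, adjusted p = 0.0084 in edgeR). Gfra1, a co-receptor for glial cell line-derived neurotrophic factor, stood at 14.3 and 13.1 CPM in the mutants and 44.7 and 40.3 in the controls (log2 fold change -1.60 ± 0.31 SE, adjusted p = 0.025 in edgeR). For both, the pair of controls lay above the pair of mutants. The genes Tmem176a, Btbd17, D030055H07Rik and Ddrgk1 fell by 1.72, 1.55, 1.82 and 1.37 on the log2 scale.

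Among the rises, Fgf14 was the most abundant. It encodes an intracellular protein that binds voltage-gated sodium channels, and its gene spans chr14:123977907-124677127. Its level was 1137 and 677 CPM in the mutants and 349 and 360 CPM in the controls (log2 fold change 1.37 ± 0.20 SE, adjusted p = 0.0059 in edgeR's quasi-likelihood test). The mutants differed from each other by more than the controls did, and without mutant replicate 1 the fold change was 0.99 (adjusted p = 0.001), just under the threshold of 2-fold.

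Gabbr2, a subunit of the GABA-B receptor, stood at 181 and 154 CPM in the mutants and 65.3 and 76.2 in the controls (log2 fold change 1.25 ± 0.21 SE, adjusted p = 0.013 in edgeR). Adcy8, a calcium-stimulated adenylyl cyclase, stood at 172 and 170 CPM in the mutants and 74.2 and 73.3 in the controls (log2 fold change 1.26 ± 0.20 SE, adjusted p = 0.0084 in edgeR). Both pairs were close within genotype and apart between genotypes. Gabbr2 was the 1 member called of 23 tested from a list of receptors and calcium signalling genes. The list had a median of 0.20 and 16 positive values, beside 5733 of 11482 over all genes tested.

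Tenm4, a teneurin of the cell surface, rose by 1.34 on the log2 scale and Ntrk3, the neurotrophin 3 receptor, by 1.05. The protein phosphatase 1 inhibitor Ppp1r14c rose by 1.73, the sulfotransferases Hs3st4 and Chst9 by 1.47 and 1.20, the scaffold Grip1 by 1.04, Nkain2 by 1.04, Car10 by 1.15 and Nnat by 1.17. The unnamed or antisense transcripts Gm29683, 4933406I18Rik and Nkx2-2os had log2 fold changes of 2.28, 1.59 and 1.498. Gm29683 ranged from 3.58 to 30.6 CPM between the controls. Reads may be split between genes that overlap on the same strand, which makes values less certain for Gm29683, Nkx2-2os, Fgf14, Tenm4, Nkain2, Grip1, Ntrk3, Hs3st4 and Ppp1r14c among the rises and for Wls, Ctsl, D030055H07Rik, Hsd11b1 and 9330159F19Rik among the falls.

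Lists of genes for the housekeeping functions of astrocytes gave no call. Over all genes tested, 0.131% were called higher and 0.253% lower. For lists of this size, here and further on, 0 calls is thus near the share over all genes. The lists given here do not hold Kcnk1, a potassium channel subunit, or the apolipoprotein genes Apoe and Clu, which were called. Of 14 defining markers, 16 genes of glutamate and GABA uptake and metabolism, 16 of potassium, water and gap junction coupling and 18 of energy metabolism, 0 were called by edgeR in either direction. The medians were -0.11, -0.04, -0.13 and -0.11 on the log2 scale. Glul, the glutamine synthetase, stood at 685 and 665 CPM in the mutants and 921 and 790 in the controls (log2 fold change -0.29), and the bicarbonate transporter Slc4a4 at 1945 and 2479 against 1874 and 1794 (0.32). The glycolytic enzyme Aldoc stood at 175 and 169 CPM in the mutants and 315 and 263 in the controls, a separation that missed the threshold (log2 fold change -0.70, adjusted p = 0.12 in edgeR). The cation channel gene Trpm3 had FDR below 0.05 without reaching 2-fold, at 2189 and 2678 CPM in the mutants and 1539 and 1485 in the controls (log2 fold change 0.74 ± 0.15 SE, adjusted p = 0.043 in edgeR).

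Wls was the 1 member called of the 10 tested that make, secrete or assist Wnt proteins. Wnt7a stood at 60.2 and 59.3 CPM in the mutants and 54.5 and 68.4 in the controls, and Wnt7b at 83.1 and 58.1 against 47.4 and 46.1. Neither ligand passed (log2 fold changes -0.02 and 0.53), and the direction of Wnt7a turned with the processing. Of 29 receptors and transducers, 0 were called and the median was 0.07. Tcf7l1, a repressive TCF factor, stood at 378 and 268 CPM in the mutants and 185 and 199 in the controls (log2 fold change 0.75, adjusted p = 0.11 in edgeR). Ror2, a Wnt receptor tyrosine kinase, had 10 and 35 UMIs in the mutants and 2 and 7 in the controls, with a log2 fold change of 2.63 ± 0.57 (SE) that just missed (adjusted p = 0.052 in edgeR).

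Among 10 tested feedback targets and antagonists of the Wnt pathway, 0 were called by edgeR, 9 had negative values and the median was -0.41. Over all 11482 genes tested, 5749 had negative values. Axin2, the negative regulator most used as a readout of beta-catenin, stood at 17.2 and 9.55 CPM in the mutants and 22.4 and 18.4 in the controls (log2 fold change -0.82, adjusted p = 0.49 in edgeR). The ubiquitin ligase Rnf43 stood at 8.60 and 8.35 CPM in the mutants and 23.2 and 19.4 in the controls (log2 fold change -1.26, adjusted p = 0.20 in edgeR). Its relative Znrf3 stood at 307 and 294 CPM against 442 and 358 (log2 fold change -0.37). The mutants were below both controls for these 3 genes, with differences that did not pass. The share of all genes so placed was not counted. The median of the list stayed between -0.53 and -0.35 in 12 other settings. Axin2, Rnf43 and Znrf3 were chosen after their values were seen.

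Genes of other signals and of stem cells did not pass, beside 0.131% called higher and 0.253% lower over all genes tested. From Notch and Hedgehog signalling 0 of 19, from BMP and FGF signalling 0 of 26 and from neural stem cells 0 of 14 were called by edgeR (medians 0.09, -0.09 and -0.07), and Egfr stood at 344 and 385 CPM in the mutants and 354 and 343 in the controls. Of 28 synapse-organising and matrix genes, Thbs4 alone was called (median -0.01). Circadian clock genes (0 of 15, median 0.03) and glucocorticoid response genes (0 of 12, median -0.25) were not called either.

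Reactive genes gave no call, beside 0.131% called higher and 0.253% lower over all genes tested. Of 42 listed, 16 were detected well enough to test, 0 passed in edgeR and the median was 0.19, a sign that turned in 5 of 12 other settings, with DESeq2 (-0.19), thinning (-0.18), no filter (-0.32) and without mutant replicate 2 (-0.49) or control replicate 2 (-0.04). Gfap stood at 241 and 350 CPM in the mutants and 595 and 296 in the controls (log2 fold change -0.48 ± 0.25 SE, adjusted p = 0.53 in edgeR's quasi-likelihood test). The genotypes overlapped, and without control replicate 1 the value was 0.05. The filament protein Vim stood at 17.2 and 16.7 CPM in the mutants and 47.4 and 34.9 in the controls (log2 fold change -1.20, adjusted p = 0.096 in edgeR), and complement C4b at 20.1 and 28.2 against 33.1 and 35.9 (-0.34).

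Genes that mark the brain region of an astrocyte were tested because Wnt signals pattern the dorsal forebrain. Of 6 telencephalic genes 0 were called in edgeR and the median was -0.43. The transcription factors Emx2 and Lhx2 stood at 74.5 and 58.9 CPM against 95.7 and 99.9, and at 63.0 and 58.1 against 80.5 and 82.5 in the controls (log2 fold changes -0.58 and -0.41). The mutants were below the controls for both without passing, and the share of all genes so placed was not counted. Of 6 genes typical of non-telencephalic astrocytes 0 were called in edgeR, with a median of -0.57 whose sign turned with thinning (0.42) and without control replicate 2 (0.09). Zic1 had 0 and 16 UMIs in the mutants and 29 and 49 in the controls (log2 fold change -2.13, adjusted p = 0.056 in edgeR), while the glycine transporter Slc6a9 stood at 48.7 and 50.9 CPM against 14.3 and 27.2 (1.24, adjusted p = 0.084 in edgeR).

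Immediate early genes, which cells switch on when stimulated and also during tissue handling, had negative values in 10 of 10 genes tested (median -0.66). Over all 11482 genes tested, 5749 values were negative. From the list 0 were called by edgeR. Jun stood at 37.2 and 37.4 CPM in the mutants and 49.2 and 61.1 in the controls (log2 fold change -0.53). The median stayed between -0.73 and -0.46 in 12 other settings. It was -0.46 when samples were scaled within 20 classes of gene span, as described further on. The part of gene length in these values was not tested beyond that.

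Transcripts of other cells were present at low level in the astrocyte nuclei of every sample. The summed level of 14 granule cell markers was 1825 and 2345 CPM in the mutants and 2198 and 2058 in the controls, that of 10 oligodendrocyte markers was 206 to 285 CPM, and that of 10 microglia markers 105 to 122 CPM. The 10 choroid plexus markers varied most, at 11.5 and 215 CPM in the mutants and 85.8 and 25.2 in the controls. The 13 excitatory and 10 inhibitory neuron markers summed to 1086 to 1375 and 178 to 351 CPM, and those of oligodendrocyte precursors, vessels, fibroblasts and ependyma to 155 to 298, 115 to 198, 33.5 to 51.0 and 25.8 to 46.1 CPM. No gene of these lists was called, and their part in the called genes was not tested beyond the fit without the nuclei richest in them, which called 21 genes higher and 39 lower.

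The genotype difference of a gene in astrocytes ran with its length. The median log2 fold change was -0.29 over 981 tested genes that span under 5 kb and rose in each of 8 classes of span to 0.28 over 225 genes above 500 kb. The 15 genes that rose had a median span of 330 kb and the 29 that fell of 16.5 kb, against 29.7 kb over the 11472 tested genes with a known span. The same order from -0.30 to 0.36 was seen in oligodendrocytes and from -0.37 to 0.15 in precursors. In bulk RNAseq the medians ran from 0.04 to -0.02.

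When samples were scaled within 20 classes of span, a setting chosen after seeing the data, 9 genes were higher and 25 lower, of which 7 and 22 were among the 44. Wls (log2 fold change -4.37), Thbs4, Clu, Pde10a, Fgf14 and Gabbr2 passed. Cst3 fell to -0.91, below 2-fold though with adjusted p = 0.003, and Apoe to -0.78 (adjusted p = 0.18, both in edgeR). Nuclear libraries hold unspliced RNA, and their part in the order by length was not tested.

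**Figure D3:**
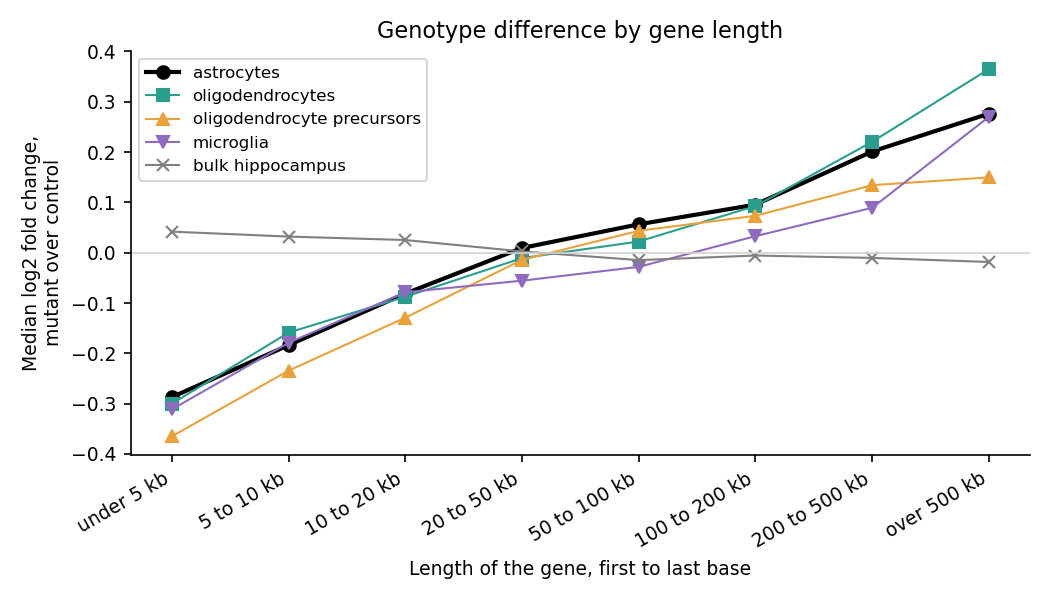
Median log2 fold change of mutant over control (vertical axis) in 8 classes of gene span (horizontal axis), for astrocytes, other glia and bulk RNAseq, with 1 line per data set. The astrocyte line climbs from -0.29 under 5 kb to 0.28 above 500 kb, while the bulk line stays between 0.04 and -0.02.

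To ask which differences were larger or smaller in astrocytes than in the other glia of the same mice, the genotype difference in astrocytes was set against its mean in oligodendrocytes, oligodendrocyte precursors and microglia in a single fit. The mouse was a term of the fit, so that what moves in all glia of a mouse is taken up. Of 11999 genes, 4 had a lower difference in astrocytes (0.0333%) and 0 a higher one (0%). At an unadjusted p under 0.05 and 2-fold there were 157 and 118, and no other tool was run. Without mutant replicate 1 there were 9 lower and 0 higher, without mutant replicate 2 there were 0 and 1, without control replicate 1 there were 1 and 0, and without control replicate 2 there were 0 and 0. Mutant replicate 1 gave 73 oligodendrocyte, 89 precursor and 13 microglia nuclei to this comparison, which limits it.

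Pde10a (mm10 chr17:8525372-8986648) encodes a phosphodiesterase that breaks down cAMP and cGMP. In astrocytes it stood at 181 and 284 CPM in the mutants and 398 and 791 CPM in the controls, with both mutants below both controls (log2 fold change -1.26 ± 0.27 SE, adjusted p = 0.048 in edgeR). DESeq2 did not call this (adjusted p = 0.40), and without control replicate 2 the fold change was -0.63 (adjusted p = 0.55 in edgeR). In precursors it stood at 458 and 471 CPM in the mutants and 435 and 391 in the controls (log2 fold change 0.22), and in oligodendrocytes and microglia the log2 fold changes were 0.81 and 0.22. The astrocyte difference was thus the 1 with a negative sign, and the difference of differences was -1.62 ± 0.27 (SE, adjusted p = 3.5e-05, edgeR's quasi-likelihood interaction test, Benjamini-Hochberg adjusted).

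Fewer mutant nuclei held the transcript. After thinning to 1500 UMIs, a Pde10a UMI was found in 20.4% and 22.9% of mutant astrocytes and 34.2% and 44.2% of control astrocytes. The interaction passed without mutant replicate 1 or control replicate 1 and had adjusted p = 0.57 without mutant replicate 2 and 0.35 without control replicate 2.

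Ephb1, an ephrin receptor, stood at 155 and 170 CPM in mutant astrocytes and 293 and 293 in control astrocytes (log2 fold change -0.79, adjusted p = 0.077 in edgeR). In oligodendrocytes it stood at 796 and 762 CPM in the mutants and 626 and 543 in the controls, the opposite order. The difference of differences was -2.18 ± 0.45 (SE, adjusted p = 0.0097 in edgeR). Part of its size came from microglia, where Ephb1 stood at 0, 16.04, 0 and 1.39 CPM. With microglia left out, a setting chosen after seeing the data, it was -1.14 ± 0.22 (SE, adjusted p = 0.000825 in edgeR). Without mutant replicate 2 it was 0.24 (adjusted p = 1 in edgeR), and it did not pass without either control. With each nucleus thinned to 1500 UMIs, 19.2% and 19.1% of mutant and 32.8% and 31.9% of control astrocytes held an Ephb1 UMI.

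Pde3a, a cGMP-inhibited phosphodiesterase, had 0 and 43 UMIs in mutant astrocytes and 40 and 94 in control astrocytes (0, 17.1, 35.8 and 45.6 CPM). The fitted log2 fold change was -1.503 in astrocytes, 0.35 in oligodendrocytes and -0.34 in precursors, with a difference of differences of -1.70 ± 0.38 (SE, adjusted p = 0.029 in edgeR). Rbms3, an RNA-binding protein, stood at 117 and 121 CPM in mutant and 214 and 179 CPM in control astrocytes. Its log2 fold change was -0.65 in astrocytes, 1.14 in oligodendrocytes, 0.34 in precursors and 0.64 in microglia, and the difference of differences was -1.26 ± 0.28 (SE, adjusted p = 0.031 in edgeR). Pde3a and Rbms3 passed without mutant replicate 1, and neither did without any other sample.

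Genes with the lowest p among those that did not pass were Cntnap4 on the lower side (difference -2.38) and Lmo1, Nnat, Chst9, Tcf7l1 and Clgn on the higher side (2.19, 1.01, 1.41, 2.53 and 4.88), with adjusted p from 0.11 to 0.41 in edgeR's quasi-likelihood interaction test. Clgn had under 4 CPM in astrocytes. Gfra1 had a log2 fold change of -1.60 in astrocytes, 0.31 in oligodendrocytes and -0.00 in precursors, and a difference of -1.73 that did not pass (adjusted p = 0.23 in edgeR). In microglia Gfra1 stood at 0 and 7.29 CPM in the mutants and 0 and 8.33 in the controls. With microglia left out, a setting chosen after seeing the data, the Gfra1 difference was -1.75 (adjusted p = 7.9e-05 in edgeR). There Nnat (1.11, adjusted p = 0.00048) and Lmo1 (2.08, adjusted p = 0.022) also passed in edgeR, while Cntnap4, Chst9, Tcf7l1 and Clgn did not.

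In each of the other glia the median of the genes called in astrocytes had the same sign. The genes that fell in astrocytes had median log2 fold changes of -0.85 over the 22 tested in oligodendrocytes, -0.92 over 25 in precursors and -0.68 over 20 in microglia, and those that rose had medians of 0.56 over 10, 0.34 over 14 and 0.39 over 11. Over all genes tested the medians were -0.01, -0.01 and -0.04. Cst3 stood at 1533 and 1210 CPM in mutant microglia and 2517 and 3161 in control microglia, and its log2 fold changes were -0.81, -1.14 and -1.22 in oligodendrocytes, precursors and microglia beside -1.23 in astrocytes. For Apoe they were -1.40, -1.60 and -1.4998 beside -1.10, and for Tenm4 1.51, 1.99 and 1.15 beside 1.34. The glia of a mouse share a library, so these are not independent measurements.

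**Figure D4:**
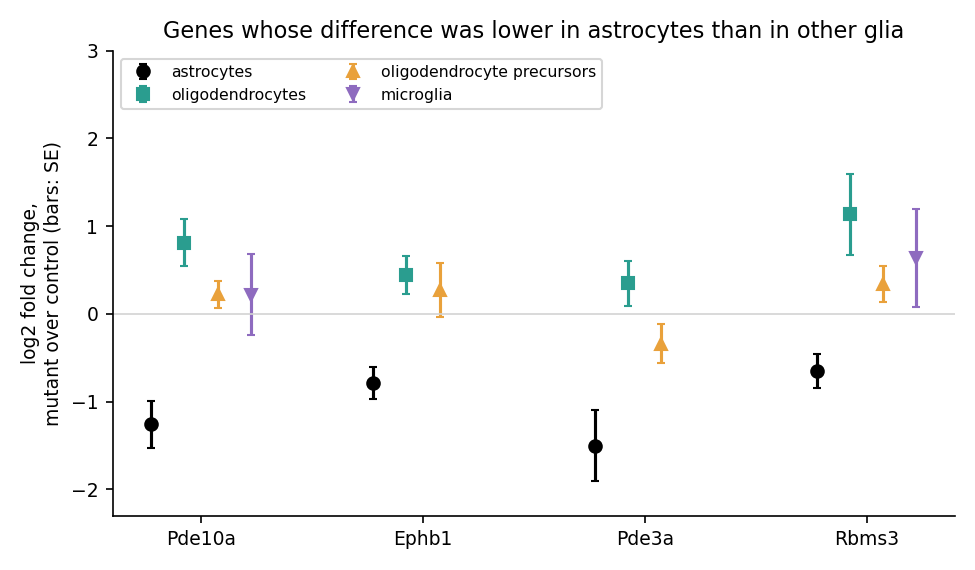
Log2 fold change of mutant over control (vertical axis, bars SE) for the 4 genes whose difference was lower in astrocytes than in other glia (horizontal axis), with 1 mark per cell type in which the gene was tested. For Pde10a the astrocyte mark is at -1.26 and the others at 0.22 to 0.81, and for Rbms3 it is at -0.65 and the others at 0.34 to 1.14.

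Bulk RNAseq of 2 mutant and 2 control mice gave a second readout for these genes. In it, fewer cells of a type and less RNA per cell cannot be told apart. In each genotype, replicate 2 carries the same code in its sample title in both assays. No source says what this code marks, or whether the assays share a mouse. The libraries held 56002381 to 79576196 expected counts. At the study's thresholds for bulk of FC above 3 and FDR below 0.05, 4 of 20687 genes were higher (0.0193%) and 41 lower (0.198%). None of the genes called in astrocytes and tested in bulk passed. Without mutant replicate 1 there were 248 higher and 147 lower in bulk, without mutant replicate 2 there were 75 and 79, and without either control 0 and 0 in edgeR. Of the 29 that fell in astrocytes, 12 had a negative value in bulk and the median was 0.09, and of the 14 tested that rose, 7 had a positive value and the median was -0.04, beside 0.01 over all genes.

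Single genes differed in this respect. Cst3 stood at 596 and 587 CPM in the bulk mutants and 538 and 524 in the controls (log2 fold change 0.18), and Apoe at 1070 and 1027 against 925 and 910 (0.22), which is the other direction from that in astrocyte nuclei. Gfra1 had -0.94 ± 0.10 (SE, adjusted p = 0.031) and Tenm4 0.47 ± 0.055 (SE, adjusted p = 0.038, both in edgeR's quasi-likelihood test), the same direction as in astrocytes at less than 3-fold.

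Astrocyte nuclei were not uniform. At 1500 UMIs each, Gfap was found in 23 of 167 and 210 of 939 mutant nuclei and in 126 of 491 and 131 of 570 control nuclei (13.8%, 22.4%, 25.7% and 22.98%). Transcripts were then compared between nuclei with and without a Gfap UMI inside each sample, as a description without a test, since nuclei of a mouse are not replicates. In mutant replicate 1 the 23 nuclei make 1 UMI worth 29.0 CPM, so its values are coarse.

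Myoc, which encodes myocilin, was found mostly in the nuclei with Gfap. Its level was 145, 22.2, 122 and 61.1 CPM in those nuclei and 0, 1.83, 0 and 0 CPM in the others, for mutant replicates 1 and 2 and control replicates 1 and 2. Id3, an inhibitor of basic helix-loop-helix factors and a target of BMP signals, stood at 290, 283, 317 and 336 CPM with Gfap and 88.0, 86.9, 80.4 and 80.5 CPM without. The ratios of Id3 were thus alike in all 4 mice, at 3.13 to 3.99. Igfbp5, an insulin-like growth factor binding protein, had ratios of 2.59 to 3.26, the semaphorin receptor Nrp2 3.101 to 6.52, Id1 2.72 to 5.97 and Vim 2.02 to 6.45.

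All 8 detected genes of a list for fibrous astrocytes, the type of white matter and the brain surface, were higher in nuclei with Gfap in all 4 samples, as were 4 of 7 detected reactive genes and 4 of 14 defining markers. Over all 9328 genes detected, 698 were higher in all 4 samples (7.48%) and 691 lower (7.41%). The fibrous and reactive lists share Vim, C4b and Cd44. The lists were chosen with earlier results of these data known, so these counts are a description only. A difference between genotypes in the size of these ratios was not tested.

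**Figure D5:**
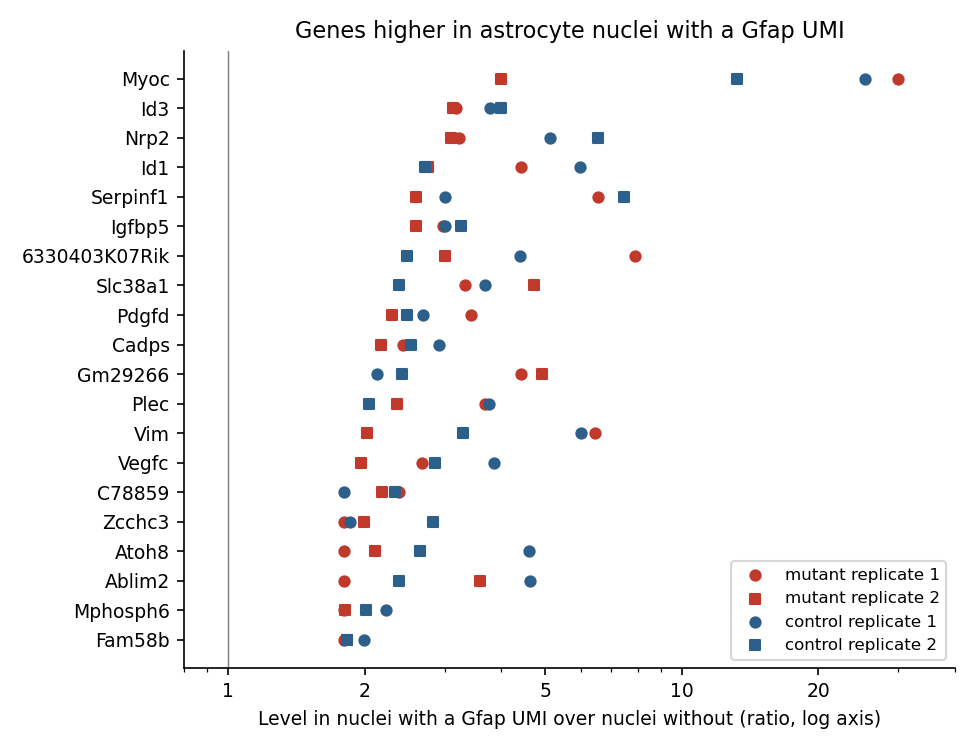
Ratio of the level in astrocyte nuclei with a Gfap UMI to that in nuclei without (log axis, 5 CPM added to both) for the genes with the highest ratios, 1 point per sample coloured by genotype, after thinning to 1500 UMIs. Id3 lies between 3.13 and 3.99 in all 4 samples and Myoc between 3.99 and 30.0.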

How the data were processed

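The labels put 8 samples in 4 groups, with 2 mice per genotype in each assay. Per the submitters' processing notes and the study's methods, the authors aligned snRNAseq reads to mm10 with Cell Ranger 3.1.0, including introns, and deposited UMI counts per gene and nucleus, with their cell types. For bulk RNAseq the authors used RSEM 1.3.0 with Bowtie2 2.2.9 and deposited expected counts per gene, which were rounded to whole numbers. The deposited TPM values and size factors were not used. The lowest UMI count of a nucleus was 1500 to 1501 in every library, and no doublet caller was run. Introns make long genes count more in nuclei, and reads of overlapping genes can be split.

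UMIs of the nuclei of a type were added up in each mouse (types with 10 nuclei or more in every library), filtered with filterByExpr, scaled by TMM and compared with edgeR 4.0.16 (R 4.3.3; quasi-likelihood test, Benjamini-Hochberg adjustment over all genes tested). A positive log2 fold change is mutant over control. Levels are CPM without TMM. Thresholds were FC above 2 (snRNAseq) or 3 (bulk) and FDR below 0.05. The code was tested on simulated data. An exact permutation test of 2 against 2 samples cannot go below p = 0.33, so p-values rest on the fits. Within each assay, each library is a separate mouse.

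Named genes were the 4 given markers, Wls, Gfap, the 10 largest rises and falls past the thresholds with both mutants outside the controls, up to 5 per direction of the interaction, called members and up to 4 abundant members of 30 gene lists, and the 20 genes with the highest lowest ratio in the split by Gfap. Where fewer than 5 passed, those with the lowest p and over 2-fold were named as not passing. Other called or list genes were named after their values were seen, as were some uncalled members of the lists. The members and lists were chosen with earlier results of these data known. Alternatives were RLE size factors, DESeq2 1.42.0, no filter, other choices of nuclei, nuclei thinned to 1000 UMIs, a replicate block, each sample left out, other fold changes, other glia in the interaction, and scaling within 20 classes of span. Gene positions are from the GRCm38 annotation (gencode). Figures were drawn with matplotlib 3.10.9.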

Additional observations from a re-analysis of the deposited data

Results flagged for a closer look

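For 4 genes the genotype difference in astrocytes differed from that in the other glia of the same mice by the interaction test (the quasi-likelihood test of edgeR, Benjamini-Hochberg adjusted), and for each the astrocyte difference was the lower. The difference of log2 fold changes was -1.62 for Pde10a (adjusted p = 3.5e-05), -2.18 for Ephb1 (adjusted p = 0.0097), -1.70 for Pde3a (adjusted p = 0.029) and -1.26 for Rbms3 (adjusted p = 0.031). Of the 4, Pde10a alone also passed in astrocytes by themselves. Pde10a, Ephb1 and Pde3a also passed against oligodendrocytes alone (-2.10, -1.22 and -1.86), as did Rbms3 (-1.68), and against precursors alone Pde10a (-1.43) and Rbms3 (-1.01) passed while Ephb1 (adjusted p = 0.095) and Pde3a (adjusted p = 0.16, both in edgeR) did not. Groups of 2 mice are too small for a check of single samples that stand apart.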

How the results depend on the processing

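Of the single-gene values recomputed under alternatives, 857 kept their direction and their side of the threshold, 184 lost the call, 23 gained one and 10 turned. Those that turned were small and not called, apart from Ephb1 in the interaction (-3.03 to 0.24 over samples left out). They were Aqp4 (0.028 with nuclei below 2 times the median UMIs, 0.13 without the nuclei richest in other markers), Gfap (0.029 without those nuclei, -0.88 to 0.049 over samples left out), Wnt7a (0.030 with nuclei below 2 times the median, -0.19 to 0.21 over samples left out), Acsbg1 (-0.014 thinned to 1000 UMIs, -0.075 to 0.20 over samples left out) and Gpc5 (-0.021 scaled by span).

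The genes higher and lower in mutant astrocytes numbered 7 and 11 with DESeq2, 44 and 81 without the filter, 25 and 44 with nuclei below 2 times the median UMIs and 9 (higher) scaled by span. Leaving out 1 sample gave 0 to 65 higher and 0 to 107 lower. RLE size factors, other fold changes, thinning and leaving out nuclei rich in other markers kept the counts within 1.5 times. Of the 15 and 29 genes, 9 and 18 were called after thinning and 15 and 29 without the filter. Against all glial nuclei the log2 ratio of astrocyte nuclei was 0.15. Against all nuclei it ran from -1.30 (mutant replicate 2 out) to 0.21 (mutant replicate 1 out) over samples left out.

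Differences higher and lower in astrocytes than in other glia numbered 4 and 11 against oligodendrocytes, 7 and 9 against precursors, 4 and 12 against both without microglia (chosen after seeing the data), and 8 lower with RLE, with 0 to 1 and 0 to 9 over samples left out. In bulk, higher and lower genes numbered 73 and 66 with DESeq2, 201 and 112 without the filter, and 0 to 248 and 0 to 147 over samples left out.

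The replicate numbers are shared by both genotypes, but no source says that they mark a batch. Samples with the same number deviated together with r = 0.11 over 11482 genes, for 2 pairs only, too few to show whether the number marks a batch. In mutant and control, replicate 2 had more UMIs per astrocyte nucleus than replicate 1 (medians 2501 and 3440 against 1964 and 1986). Replicate 2 also gave more oligodendrocytes (1112 and 1029 among 10460 and 7192 nuclei, against 73 and 232 among 5304 and 6469). The source of these likenesses was not tested. With a replicate block, 38 genes were higher and 54 lower in mutant astrocytes (15 and 27 of those called without it), 2 and 24 in bulk, and the log2 ratio of nuclei was -0.54. The cause of these changes was not tested. At 1964 to 3440 UMIs per nucleus and 349012 UMIs in the smallest sample, 1 UMI is worth 2.87 CPM in the latter, which limits what can be seen of rare transcripts such as Wls.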

Other observations

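Astrocyte nuclei were also divided, within each sample and at 1500 UMIs each, by whether they held a Pde10a UMI, a division chosen after the values of Pde10a were seen. Siah3 was higher in the nuclei with Pde10a in all 4 samples, with ratios of 1.51 to 3.69, though in mutant replicate 1 this rests on 1 UMI. Of 26 detected genes that were lower in mutant astrocytes, 1 was higher in the nuclei with Pde10a in all 4 samples (3.85%), beside 548 of all 9328 genes detected (5.87%). Of 14 detected genes that were higher in mutant astrocytes, 3 were lower in the nuclei with Pde10a in all 4 samples (21.4%), beside 699 of all genes (7.49%). No test was made.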
